A study of Mus musculus with 11 samples.

Results

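The miR-30 family is a group of microRNAs (miRNAs) that share the bases through which a miRNA recognises its targets. It was followed here in mouse feces through chemically induced colitis. The 5 members, miR-30a-5p, miR-30b-5p, miR-30c-5p, miR-30d-5p and miR-30e-5p, were taken by name from a table of 616 rows, 544 of them named miRNAs, and all 5 had counts in each of the 11 libraries. All libraries came from feces of C57BL/6 mice, and the labels give neither age nor sex. DSS, dextran sulfate sodium, damages the epithelium of the colon when it is drunk. Before DSS there were 4 libraries. On day 5 there were 3 libraries, from mice given 2.5% DSS in the drinking water for 5 days. On day 12 there were 4, from mice back on plain water for 7 days after those 5 days of DSS. No untreated mice of days 5 or 12 were among the samples, so phase and sampling day cannot be told apart.

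A miRNA is cut as a short duplex from a hairpin transcript, and 1 arm, the guide, is usually kept in a silencing complex that pairs with messenger RNAs mainly through its seed, bases 2 to 8. In the miR-30 family the 5p arm is the usual guide. The family is widely expressed in mammalian tissues, including epithelia, and is known for targets such as Snai1, a factor that turns epithelial cells towards a mesenchymal state, and Becn1, a component of autophagy.

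The mature sequences are shown because the shared seed defines the family and the few bases outside it are all that separate the rows of the table. Of the 5 members, 3 matched the RefSeq table for GRCm38.p6, and miR-30b-5p and miR-30d-5p are named only. Sequences run 5′ to 3′ with the seed in capitals.
miR-30a-5p: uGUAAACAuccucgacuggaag
miR-30e-5p: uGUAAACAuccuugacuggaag
miR-30c-5p: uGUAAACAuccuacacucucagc
miR-384-5p: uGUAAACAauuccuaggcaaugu
The seed GUAAACA was carried by 4 of 1679 distinct mature mouse miRNAs in that table (0.238%), the 3 members above and miR-384-5p. Counting positions from 1 at the 5′ end, miR-30a-5p and miR-30e-5p differed over 22 bases by the single substitution C13U. Between miR-30a-5p and miR-30c-5p there were 5 substitutions, C13A, G14C, G18C, G19U and A20C, and their first 12 bases were identical. The number of mismatches allowed in the authors' mapping is not given in the sources used here. Reads of miR-30a-5p and miR-30e-5p could therefore have been split between these rows by 1 base, and their values are uncertain to that extent.

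The hairpins lie at several loci. Mir30a is on chromosome 1 at 23272269 to 23272339, plus strand, in no longer gene of GENCODE M21. Mir30c-2 lies 19361 bases further along the same strand, at 23291701 to 23291784, in an exon of the long non-coding RNA gene Gm27028. Mir30c-1 (chromosome 4, 120769534 to 120769622) and Mir30e (chromosome 4, 120772606 to 120772697) are 2983 bases apart on the minus strand, in introns of Nfyc, which encodes a subunit of the transcription factor NF-Y. The mature miR-30c-5p is the same from Mir30c-1 and Mir30c-2, so its counts cannot be assigned to a locus. The hairpin of miR-30a, with the 5p arm and then the 3p arm in capitals, shows the origin of both arms counted below.
Mir30a: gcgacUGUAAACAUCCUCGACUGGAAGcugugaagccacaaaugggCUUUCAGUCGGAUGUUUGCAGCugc

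Library totals, the sums of miRNA counts in the table, ran from 11749 to 40835. Their means were 23027 ± 7743 in the 4 libraries before DSS, 14025 ± 3350 in the 3 of day 5 and 28166 ± 9250 in the 4 of day 12 (SD, as in all later means by phase, with n = 4, 3 and 4). Libraries of a phase did not all resemble each other: before-DSS library 2 stood apart from its phase, with chi-square per degree of freedom of 19.1 to 34.4 against the other 3, which were at 3.85 to 7.09 among themselves. On day 12 libraries 1 and 4 stood apart from the rest and from each other (38.0 to 49.1), where libraries 2 and 3 were at 7.40. Some results are also given with before-DSS library 2 and day 12 library 4 left out, and with day 12 library 1 left out. These 3 libraries were not left out together. Levels are given as CPM, the count per 1000000 of that total. The level of 3 counts, taken as the depth limit, lay at 73.5 CPM in the deepest library and 255.3 CPM in the shallowest, and all 5 members stood above it in every library. The intestinal epithelium list, with 9 of 9 markers in the table, held 12.4% to 22.3% of the counts before DSS, 6.19% to 18.5% on day 5 and 11.7% to 20.6% on day 12. The leukocyte list (7 of 7 in the table) held 0.0194% to 0.0453%, 0.128% to 0.247% and 0.620% to 0.950% in the same order. For the red blood cell list (5 of 6 in the table) the ranges were 0.908% to 2.39%, 2.86% to 4.71% and 0.544% to 3.34%. The part of these cells in the values below was not tested.

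The family made up 2.52% ± 0.716 of all miRNA counts before DSS, 3.45% ± 0.585 on day 5 and 2.36% ± 0.856 on day 12. The libraries numbered 1 to 4 before DSS held 2.15%, 3.47%, 2.65% and 1.82%. The day 5 libraries 1, 3 and 4 held 2.80%, 3.93% and 3.63%, and the day 12 libraries 1 to 4 held 1.70%, 3.14%, 3.06% and 1.54%. The ranges of all 3 phases overlapped. In feces, fewer cells of a type and less RNA per cell cannot be told apart. In both 4-library phases, libraries 1 and 4 were low and libraries 2 and 3 high.

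The family share moved with the library total. The 4 libraries with the largest totals (27870 to 40835 counts) were libraries 1 and 4 before DSS and libraries 1 and 4 of day 12, and they held family shares of 1.54% to 2.15%. In the other 7, with totals of 11749 to 25073, the shares were 2.65% to 3.93%. While the totals differed by up to 3.48-fold, the summed family count differed by 1.80-fold, between 426 and 766 counts. As a description over the 11 libraries, whose share and total hold the same total, Spearman's rho between family share and total was -0.90. For the CPM of single members it was -0.91 for miR-30a-5p, -0.32 for miR-30b-5p, -0.94 for miR-30c-5p, -0.81 for miR-30d-5p and -0.60 for miR-30e-5p, beside a median of -0.40 over the 137 rows tested. The day 5 libraries were the shallowest phase on average. Differences between phases in CPM by library total thus went with differences in depth, whose part in them was not tested. The TMM factors, which edgeR derives from the bulk of the rows to correct for composition, were 0.72 to 0.79 in the 4 deep libraries and 0.98 to 1.31 in the others. miR-21a-5p, the most abundant miRNA, held 37.1% and 42.0% of counts in day 12 libraries 1 and 4 against 15.7% to 27.3% in the other 9, and its part in the family's low share in those 2 was not tested. In the deep before-DSS libraries 1 and 4 it held 20.9% and 19.4%, above the 15.7% and 18.4% of before-DSS libraries 2 and 3. Another abundant row, miR-148a-3p, had 259438 and 305034 CPM with TMM factors in before-DSS libraries 1 and 4. In before-DSS libraries 2 and 3 it had 114923 and 188513 CPM on that scale. The TMM factors of before-DSS libraries 1 to 4, 0.788, 1.25, 0.979 and 0.735, widen this gap. The values are therefore not shares of the counts, as those of miR-21a-5p are. The part of either row in the family's share before DSS was not tested.

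**Figure D1:**
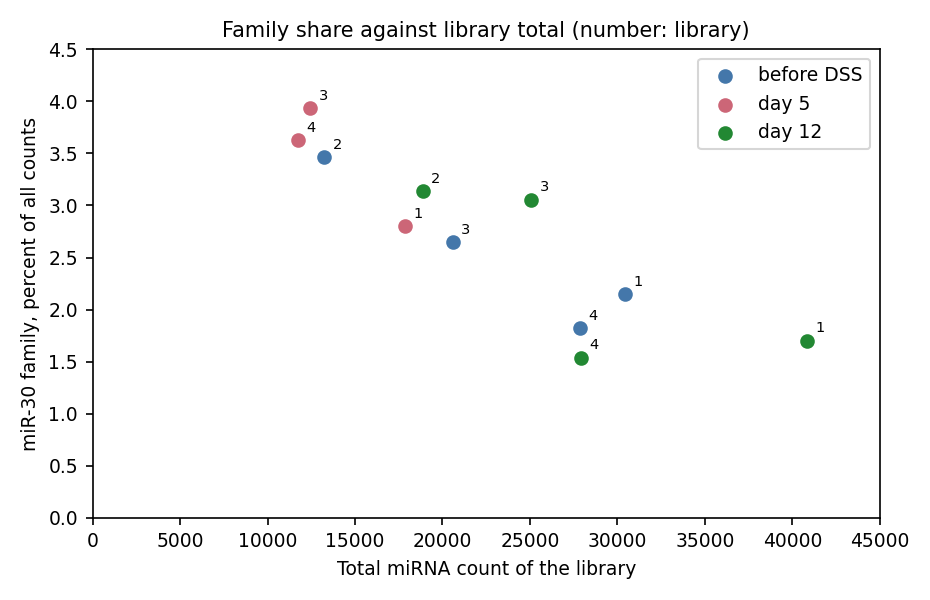
Share of all miRNA counts held by the 5 miR-30 members (percent, vertical axis) against the total miRNA count of the library (horizontal axis); each point is 1 library, coloured by phase and marked with its number. The 4 deepest libraries lie at 1.54% to 2.15%, below the other 7 at 2.65% to 3.93%.

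The members stood at very different levels. miR-30a-5p averaged 10864 CPM over the 11 libraries and miR-30d-5p 10672 CPM, ranks 19 and 20 of the 616 rows. miR-30e-5p averaged 2528 CPM (rank 52), miR-30c-5p 2154 CPM (rank 62) and miR-30b-5p 950 CPM (rank 95). Levels were compared within libraries as log2(CPM + 1) in all 10 pairs by two-sided exact sign-flip permutation tests, with Benjamini-Hochberg adjustment over the 10. In 8 pairs the levels differed with adjusted p of 0.00140 to 0.00366, taking the 11 libraries as independent. With the signs of same-numbered day 12 and before-DSS libraries flipped together, which leaves 7 units, 8 pairs again differed (exact permutation, adjusted p = 0.0195 each). If libraries of a number are 1 unit in all phases, 4 units remain, no p can fall under 0.125, and 0 pairs pass. miR-30a-5p was 4.22-fold above miR-30e-5p (geometric mean of the within-library ratios), higher in 11 of 11 libraries. miR-30c-5p was 2.18-fold above miR-30b-5p, higher in 10 of 11. miR-30a-5p and miR-30d-5p, next to each other in rank of level, were not separated. Their ratio was 1.06, miR-30a-5p was higher in 6 of 11 libraries, and the adjusted p was 0.479 in the permutation test. For miR-30c-5p against miR-30e-5p the ratio was 0.788 and the adjusted p 0.0738, with miR-30c-5p higher in 2 of 11. These levels are counts of ligated fragments, and how well each sequence was ligated was not measured.

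miR-30a-5p had 289, 197, 236 and 235 counts in libraries 1 to 4 before DSS. On day 5 it had 231, 165 and 152 counts in libraries 1, 3 and 4, and on day 12 it had 299, 229, 289 and 143 in libraries 1 to 4. The means were 11070 ± 2834 CPM before DSS, 13037 ± 183 CPM on day 5 and 9029 ± 3369 CPM on day 12. By library total every day 12 library lay below every day 5 library, and the other pairs of phases overlapped. With TMM factors another pair was apart: the 4 day 12 libraries had 7277 to 10737 CPM, each below the 4 libraries before DSS at 11690 to 12314 CPM.

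miR-30d-5p, the other abundant member, stood at 8831 ± 3339 CPM before DSS, 14392 ± 3870 CPM on day 5 and 9723 ± 4325 CPM on day 12. Its counts were 225, 174, 195 and 148 before DSS, 184, 224 and 175 on day 5, and 222, 253, 338 and 183 on day 12. The phases overlapped, and day 12 was split, with 13413 and 13481 CPM in libraries 2 and 3 but 5437 and 6561 CPM in libraries 1 and 4.

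miR-30e-5p, whose hairpin lies in the Nfyc gene, had a level of 2490 ± 280 CPM before DSS, 2906 ± 826 CPM on day 5 and 2283 ± 554 CPM on day 12. The counts were 72, 36, 56 and 60 before DSS, 40, 33 and 45 on day 5, and 107, 50, 60 and 41 on day 12. All phases overlapped.

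miR-30c-5p stood at 1859 ± 772 CPM before DSS, 3222 ± 864 CPM on day 5 and 1647 ± 726 CPM on day 12. Its counts were 47, 39, 37 and 32 before DSS, 40, 48 and 42 on day 5, and 34, 45, 53 and 35 on day 12. By library total the phases overlapped. With TMM factors the day 12 libraries, at 1128 to 2110 CPM, all lay below the day 5 libraries, at 2179 to 3053 CPM.

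miR-30b-5p was the rarest member, with 969 ± 206 CPM before DSS, 988 ± 636 CPM on day 5 and 902 ± 119 CPM on day 12. Day 5 held both its lowest and its highest library, 336 CPM from 6 counts in library 1 and 1606 CPM from 20 counts in library 3. Before DSS it had 21, 13, 21 and 33 counts, on day 5 library 4 it had 12, and on day 12 it had 33, 15, 26 and 27. All phases overlapped.

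**Figure D2:**
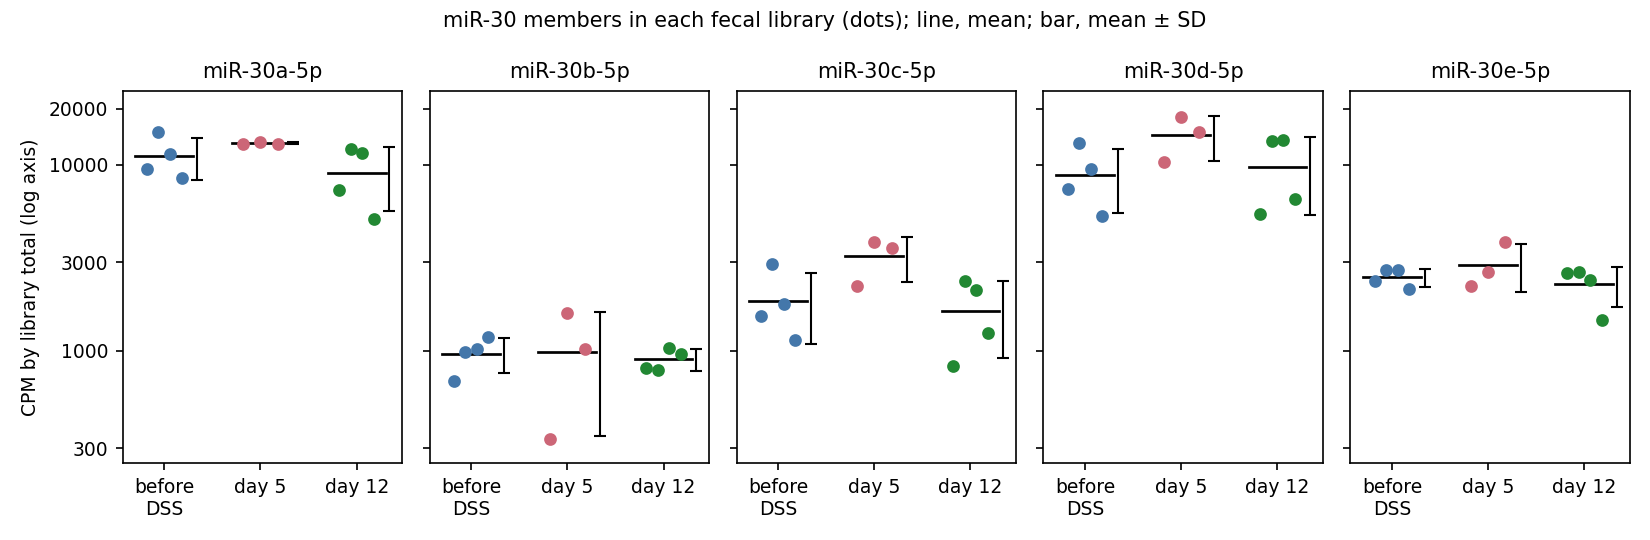
CPM by library total (log axis) of each miR-30 member in the 4 libraries before DSS, 3 of day 5 and 4 of day 12; dots are libraries, the line is the phase mean and the bar the mean ± SD. miR-30a-5p on day 12 lies wholly below day 5, and the phases of each other member overlap.

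Whether the members differed between phases was tested with edgeR's quasi-likelihood F-test on all 137 rows that passed its filter on low counts, with TMM factors and Benjamini-Hochberg adjustment over the 137 at a threshold of 0.05. All 5 members passed the filter. None of the 5 was called in any of the 3 comparisons, nor in the test for any difference among the phases, where the smallest member adjusted p was 0.337. Of all 137 rows, 8.03% passed that last test. At an unadjusted p under 0.05 there were 0 among the 15 tests of a member, DESeq2 and limma-voom called 0 members, and the smallest unadjusted edgeR p was 0.0549. The labels do not say whether libraries of a phase came from separate mice, so these p-values measure the spread between libraries, part of which may be technical.

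Between day 5 and before DSS no member passed (0 of 5), and neither did any of the 137 rows (0%), of which 24.8% had an unadjusted p under 0.05 and DESeq2 called 5. miR-30c-5p had a log2 fold change of 0.46 ± 0.32 (SE; edgeR adjusted p = 0.409) and miR-30d-5p of 0.37 ± 0.29 (edgeR adjusted p = 0.480). miR-30b-5p had -0.45 ± 0.49, miR-30e-5p -0.18 ± 0.32 and miR-30a-5p -0.10 ± 0.26. With library totals in place of TMM factors, which put the median of all rows at 0.36 in place of 0.03, the values of miR-30a-5p, miR-30b-5p and miR-30e-5p turned positive (0.26, 0.04 and 0.25). The family median was -0.10, beside 0.03 over all rows tested, -0.20 over the 9 let-7 members and -0.75 over the 5 members of the miR-200 family. Both phases overlapped for all 5 members, while 21.2% of all rows were without overlap by library total and 18.2% with TMM factors.

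Between day 12 and before DSS again 0 of 5 passed, where 6.57% of all rows did (9 rows, all higher; 15 rows with the replicate block, and 18 when library 2 before DSS and library 4 of day 12 were left out). At an unadjusted p under 0.05 the share of all rows was 16.8%. The log2 fold changes were -0.35 ± 0.24 (SE) for miR-30a-5p (edgeR adjusted p = 0.508), -0.21 ± 0.30 for miR-30c-5p, -0.15 ± 0.29 for miR-30e-5p, -0.12 ± 0.43 for miR-30b-5p and 0.09 ± 0.27 for miR-30d-5p. The family median of -0.15 stood beside -0.02 over all rows, and the median absolute value of 0.15 beside 0.41. With TMM factors the groups did not overlap for 1 of the 5 members, miR-30a-5p, which was lower, where 11.7% of all rows were without overlap in either direction and 2.92% were lower. By library total it was 0 of 5, against 13.9% of all rows. Among 5 members, 1 is too few to be told apart from these shares. miR-30a-5p had 95% limits of 0.547-fold and 1.12-fold, and miR-30d-5p of 0.711-fold and 1.59-fold. Without before-DSS library 2 and day 12 library 4, miR-30a-5p had a log2 fold change of -0.13 and miR-30d-5p of 0.29. Without day 12 library 1, miR-30e-5p had a log2 fold change of -0.37, miR-30a-5p of -0.38 and miR-30d-5p of 0.21.

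Between day 12 and day 5 the members called were 0 of 5, where 3.65% of all rows passed (4 higher and 1 lower) and 19% had an unadjusted p under 0.05. miR-30c-5p had the lowest value, a log2 fold change of -0.67 ± 0.32 (SE; unadjusted p = 0.0549, edgeR adjusted p = 0.259), with 95% limits of 0.388-fold and 1.02-fold. The other values were -0.28 ± 0.29 for miR-30d-5p, -0.25 ± 0.26 for miR-30a-5p, 0.33 ± 0.48 for miR-30b-5p and 0.03 ± 0.32 for miR-30e-5p. Library totals put the median of all rows at -0.33 in place of -0.03, and with them all 5 values were negative, miR-30b-5p at -0.13 and miR-30e-5p at -0.36. There was no overlap for 1 of 5 members on either scale, miR-30c-5p with TMM factors and miR-30a-5p by library total, both lower. With TMM factors 16.1% of all rows were without overlap (7.3% lower), and by library total 13.1% (8.76% lower). The comparisons with day 12 share its libraries, and those with before DSS share theirs, so the values above are not independent of each other.

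The 95% intervals give the sizes of change these libraries allow. In 10 of the 15 tests of a member the interval lay within a 2-fold change in either direction. It was widest for miR-30b-5p, which had the fewest counts, at 0.352-fold to 1.52-fold on day 5 against before DSS. A p above the threshold does not show that the levels were equal.

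**Figure D3:**
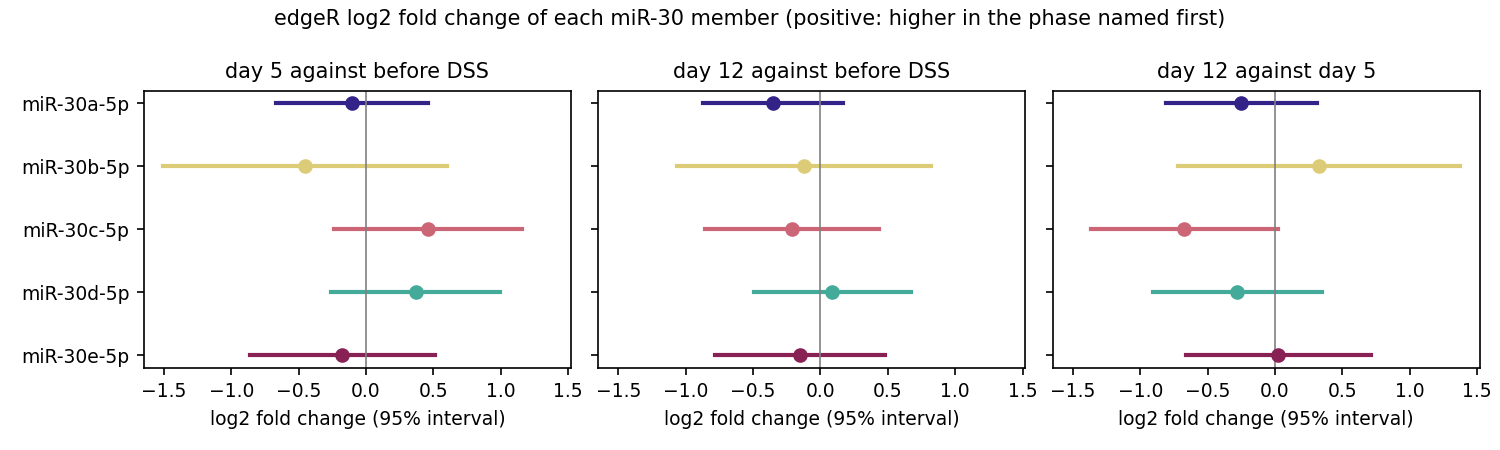
edgeR log2 fold change (dot) with its 95% interval (line) of each miR-30 member in the 3 comparisons; positive values are higher in the phase named first. Each of the 15 intervals includes 0, and that of miR-30c-5p on day 12 against day 5 ends at 0.022.

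The make-up of the family was described as the share of each member in the summed counts of the 5, which does not depend on the library total or on scaling factors. miR-30a-5p held 44.2% ± 1.49 before DSS, 38.5% ± 6.68 on day 5 and 38.2% ± 3.97 on day 12. For its part, miR-30d-5p held 34.3% ± 3.74, 41.2% ± 4.49 and 40.4% ± 5.66 in the same 3 phases. Shares of miR-30e-5p were 10.2% ± 1.71, 8.43% ± 1.95 and 10.3% ± 3.47 in the same order, miR-30c-5p 7.19% ± 0.942, 9.21% ± 1.06 and 6.89% ± 1.43, and miR-30b-5p 4.10% ± 1.65, 2.70% ± 1.45 and 4.24% ± 1.64 (SD). Most of the family's counts thus came from miR-30a-5p and miR-30d-5p in each phase, and which of them led differed between libraries.

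The count of miR-30d-5p over that of miR-30a-5p was 0.779, 0.883, 0.826 and 0.630 in libraries 1 to 4 before DSS, so miR-30a-5p led in all 4. On day 5 it was 0.797, 1.36 and 1.15 in libraries 1, 3 and 4. On day 12 it was 0.742, 1.10, 1.17 and 1.28 in libraries 1 to 4, so that miR-30d-5p led in 5 of the 7 later libraries. Library 1 had miR-30a-5p in the lead in each phase. The exact 95% binomial intervals of the ratio in day 12 library 4 (1.02 to 1.60) and before-DSS library 4 (0.509 to 0.777) do not meet, while those of the other 3 same-numbered pairs do, for library 1 at 0.621 to 0.886 on day 12 and 0.651 to 0.930 before DSS. Copies made by PCR cannot be told from separate molecules here, so such intervals cover counting error alone. The log2 ratio of miR-30a-5p to miR-30d-5p averaged -0.07 ± 0.35 (SD, n = 4) on day 12 and 0.37 ± 0.21 (SD, n = 4) before DSS, a difference of -0.44. In an exact two-sided permutation test that took the libraries as unpaired, p was 0.114, and 0.429 adjusted over 30 such tests (10 pairs in 3 comparisons). For day 5 against before DSS the difference was -0.47 (exact permutation p = 0.171, adjusted p = 0.468). None of the 30 had an adjusted p under 0.05, and with so few libraries none could have. These tests therefore cannot decide whether any ratio changed. The smallest p of the 30 was 0.0571 (exact permutation, adjusted p = 0.429), and 3 ratios reached it. These were miR-30c-5p to miR-30d-5p on day 12 against before DSS (difference of -0.31) and on day 12 against day 5 (-0.40), and miR-30c-5p to miR-30e-5p on day 12 against day 5 (-0.69). The smallest p that these designs allow is 0.0286 for 4 against 4 libraries and 0.0571 for 4 against 3, before adjustment over the 30. These ratios were examined after the values were seen.

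**Figure D4:**
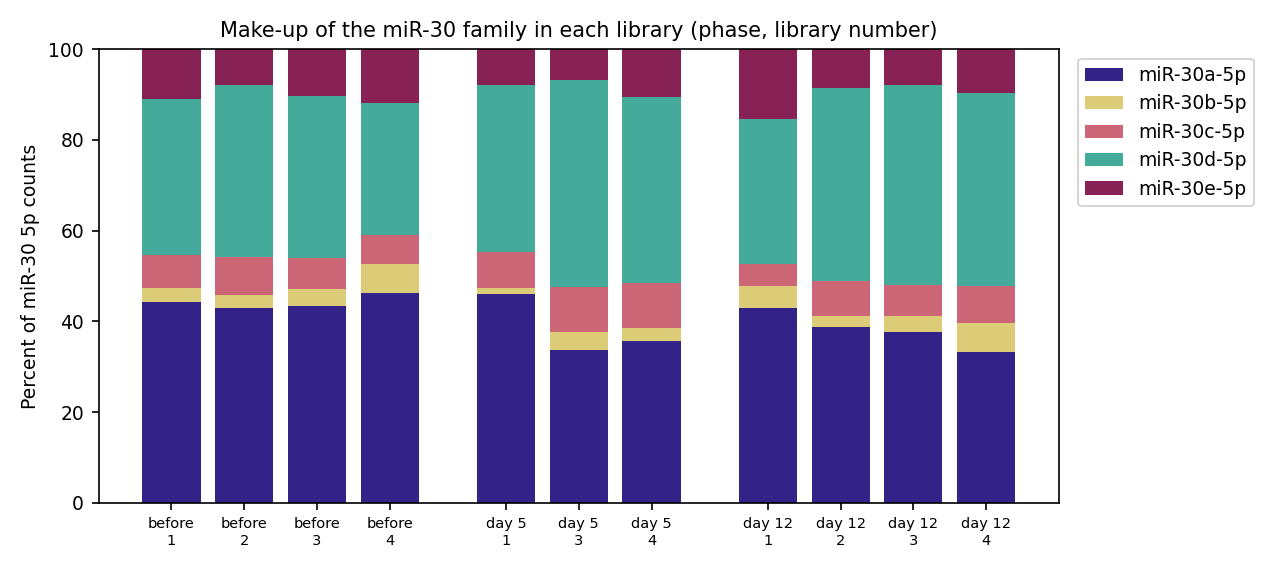
Share of each member in the summed counts of the 5 miR-30 members (percent, stacked bars) in each library, grouped by phase and marked with the library number. miR-30a-5p holds 42.9% to 46.3% in the libraries before DSS and 33.3% to 46.1% in the later ones.

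The abundant members varied little from library to library beside other rows. The SD of log2(TMM CPM + 1) over the 11 libraries, phases included, was 0.23 for miR-30a-5p, the lowest of all 137, and 0.13 without day 12 library 4, again the lowest. It was 0.29 for miR-30e-5p (rank 4 from the lowest) and 0.29 for miR-30d-5p (rank 7). miR-30c-5p had 0.40 (rank 17) and miR-30b-5p 0.62 (rank 47; 0.39 and rank 15 without day 5 library 1), beside a median of 0.79 over all rows and of 0.67 over the 85 rows at least as abundant as miR-30b-5p. Counting alone would give about 0.10 for miR-30a-5p and miR-30d-5p, 0.21 for miR-30e-5p, 0.23 for miR-30c-5p and 0.36 for miR-30b-5p. With RLE size factors miR-30a-5p again had the lowest spread, and leaving out each library in turn kept it within ranks 1 to 3. With library totals only, the ranks were 16 for miR-30a-5p, 4 for miR-30e-5p, 38 for miR-30d-5p, 48 for miR-30c-5p and 33 for miR-30b-5p, so the low rank of miR-30a-5p, miR-30c-5p and miR-30d-5p depended on the composition factors and that of miR-30e-5p did not. Ranks were compared after the values were seen.

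**Figure D5:**
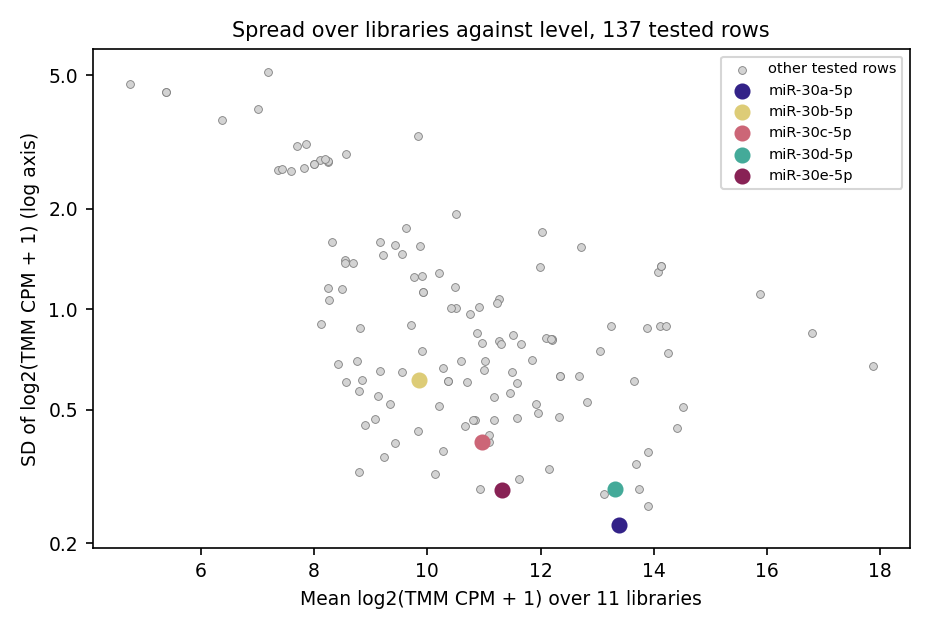
SD of log2(TMM CPM + 1) over the 11 libraries (log axis) against its mean for the 137 tested rows; miR-30 members are coloured. miR-30a-5p has the lowest SD, 0.23, where the median of all rows is 0.79.

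The members did not move as a block around these levels. Over the 11 libraries Pearson's r between members (log2 TMM CPM, sharing libraries and factors, given as a description) ran from -0.57 to 0.86, with 5 of 10 pairs below 0 and 1 above 0.5. That pair was miR-30c-5p and miR-30d-5p (r = 0.86, Spearman's rho = 0.85), which come from separate hairpins. miR-30c-5p had an r of -0.42 (Spearman's rho = -0.16) with miR-30e-5p, whose hairpin Mir30e lies near Mir30c-1 in Nfyc. Day 12 library 1 held both the highest miR-30e-5p and the lowest miR-30c-5p, 3550 and 1128 CPM with TMM factors. With miR-30a-5p, whose hairpin lies on the same strand as Mir30c-2, the r of miR-30c-5p was 0.22 (Spearman's rho = 0.34). Its counts cannot be assigned to Mir30c-1 or Mir30c-2, so neither r describes a pair of neighbouring hairpins. The rows most like the mean of the 5 members were the opposite arms miR-30a-3p (r = 0.66) and miR-30e-3p (0.64), then let-7a-5p (0.62), miR-125b-5p (0.57) and miR-381-3p (0.55). With 5 members among the 137 rows searched, the row nearest to each single member was never another member. So few members among the rows searched make that say little by itself. The nearest row was miR-411-5p for miR-30a-5p (r = 0.88), miR-92a-3p for miR-30d-5p (0.91), miR-181a-5p for miR-30c-5p (0.89), miR-378c for miR-30e-5p (0.74) and miR-23b-3p for miR-30b-5p (0.72). For miR-30c-5p the member miR-30d-5p came close, at 0.86. With TMM factors, miR-411-5p stood at 0 CPM in day 12 library 4 and at 234 to 620 CPM in all others. In that library miR-30a-5p was also at its lowest, 7277 CPM. The r of 0.88 was not computed without that library, so how far it rests on it is not known.

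The opposite arms of the hairpins, which the usual choice of guide leaves rare, were counted too. The sequences of the 2 that passed the filter on low counts are shown because they again share a seed (capitals) and differ by the single substitution G18A.
miR-30a-3p: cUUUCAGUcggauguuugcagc
miR-30e-3p: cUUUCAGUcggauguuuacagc
The 3p arm held 4.46% of the counts from the miR-30a hairpin (115 of 2580, exact 95% binomial interval 3.69% to 5.33%) and 18.3% of those from the miR-30e hairpin (134 of 734, 15.5% to 21.2%), pooled over the 11 libraries. These intervals cover counting error alone and leave out the spread between libraries. In single libraries the share ran from 2.05% to 11.8% for miR-30a and from 10.9% to 26.8% for miR-30e. By phase the share for miR-30e was 21.3% ± 4.04 before DSS, 18.8% ± 4.21 on day 5 and 15.2% ± 3.67 on day 12. For miR-30a it was 4.67% ± 2.71, 6.37% ± 4.73 and 3.13% ± 0.971 in the same order. miR-30e-3p had a log2 fold change of -0.76 ± 0.41 (SE; edgeR adjusted p = 0.355) on day 12 against before DSS, from 46 counts on day 12 and 61 before DSS. miR-30a-3p had -1.24 ± 0.62 (edgeR adjusted p = 0.276) on day 12 against day 5, with 32 and 36 counts, and -0.44 without day 5 library 3, which alone held 22 of the 36. Neither arm was called in any comparison, and the smallest unadjusted edgeR p was 0.0624.

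The other rows of the family fell under the filter on low counts. miR-30f had 43 counts in all, 1 to 8 in each library. miR-30c-2-3p had 29 counts, miR-30d-3p 8, miR-30c-1-3p 7 and miR-30b-3p 3. miR-384-5p, the further miRNA with the family seed, had 8 counts, 3 before DSS, 3 on day 5 and 2 on day 12.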

How the data were processed

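Small RNA was isolated from feces with a mirVana kit, made into TruSeq small RNA libraries and sequenced with a HiSeq, per the labels' protocols. ACGT101-miR removed adapter dimers, junk, low complexity reads, repeats and other RNA classes, per the labels' protocols. For the aligner, miRNA release and build, nothing was given in the sources used here. The authors deposited raw read counts for 616 rows in 11 columns. Another 11 columns of the table were not used.

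Day 12 columns match titles by number. Day 5 and before-DSS columns were assigned to their phase only and are named by the column number. The columns taken as before DSS are headed day 1 in the table, and the labels hold no other phase they could be. Libraries within a phase differed by more than sampling noise, with chi-square per degree of freedom of 3.85 or more.

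Counts were tested with edgeR 4.0.16 in R 4.3.3 (TMM factors, filterByExpr, glmQLFit and glmQLFTest, all 11 libraries, group as the term). The 137 rows kept held 94.1% to 98.2% of a library's counts. Standard errors came from the fit's weights and posterior dispersion. The script was tested on simulated data. Exact tests used scipy 1.17.1. Alternatives were RLE, TMMwsp and library-total scaling, 2 filters, DESeq2 1.42.0, limma-voom (limma 3.58.1), fits of the compared phases only, a replicate block, a fit without the 5 most abundant rows, and leaving out libraries.

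Pairing was checked by the correlation of same-numbered libraries' deviations from their phase means. It was 0.371, 0.497, 0.243 and 0.325 between day 12 and before DSS, so there the numbers were taken to pair libraries, from the data alone. Libraries of unlike number in these phases had -0.483 to 0.277. The highest, before-DSS library 4 with day 12 library 1, lay above the 0.243 of library 3, so the pairing is uncertain. For same-numbered libraries of day 5 and before DSS the correlation was 0.199, 0.0621 and -0.122, and for those of day 12 and day 5 it was 0.192, 0.162 and 0.0398.

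The members, lists and tests were chosen with earlier results of these data known. Beside the 5 members, the rows named by rule are all other miR-30 rows and miR-384-5p, the 5 rows most correlated with the family mean and the row nearest to each member. The abundant rows miR-21a-5p and miR-148a-3p were named outside that rule. Hairpin positions and sequences are from RefSeq, GRCm38.p6.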

Additional observations from a re-analysis of the deposited data

Results flagged for a closer look

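Of 32 groups of 4 libraries tested for a library far from the others (Dixon's criterion at 95%), 1 was found, and chance gives about 1 in 20. The share of miR-30d-5p in the family's counts on day 12 was 31.9% in library 1, where the other 3 libraries lay at 42.7% to 44.1%, a gap of 0.88 of the whole range. In the same library miR-30e-5p held 15.4% of the family's counts, where the others held 7.83% to 9.56%. It had the largest total of the 11 libraries, 40835 counts. The part of depth in this was not tested.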

How the results depend on the processing

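No member was called under any of the 76 combinations of comparison and alternative, and the smallest member adjusted p was 0.142. The replicate block called 0 members in each comparison, and 16, 15 and 14 of all rows on day 5 against before DSS, day 12 against before DSS and day 12 against day 5, where the fit without it called 0, 9 and 5. Over all alternatives these counts ran from 0 to 16, 5 to 18 and 1 to 21, where the 21 was out of the 616 rows tested without a filter. Without before-DSS library 2 and day 12 library 4 they were 0, 18 and 10, and no member changed sign. For the 2 comparisons with day 5 the column numbers did not meet the pairing criterion.

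With library totals only, values turned positive on day 5 against before DSS for miR-30a-5p (log2 fold change 0.26), miR-30b-5p (0.038), miR-30e-5p (0.25) and miR-30e-3p (0.037), and on day 12 against day 5 negative for miR-30b-5p (-0.13) and miR-30e-5p (-0.36). Leaving out each library in turn, values that changed sign ran from -0.45 to 0.82 for miR-30a-3p on day 5 against before DSS (negative without day 5 library 3), from -0.30 to 0.13 for miR-30b-5p and -0.012 to 0.26 for miR-30d-5p on day 12 against before DSS, and from -0.059 to 0.82 for miR-30b-5p and -0.19 to 0.23 for miR-30e-5p on day 12 against day 5. The cause was not tested.

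The order of levels gave 8 of 10 pairs apart, 8 to 9 when each library was left out, 8 with a pseudocount of 10 and 8 on raw counts. It gave 0 in the before-DSS libraries alone, where 4 libraries allow no p under 0.125. With the replicate block, added after seeing the data, it gave 8 with numbers paired between day 12 and before DSS and 0 with numbers paired over all phases, where 4 units have the same limit. Ranks of spread ran from 15 to 68 for miR-30b-5p, 11 to 26 for miR-30c-5p, 3 to 11 for miR-30d-5p and 4 to 9 for miR-30e-5p when each library was left out. With 6 to 33 counts a library, depth limits miR-30b-5p most.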
